A study of Homo sapiens with 6 samples.

Results

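The 9 genes described here are 8 globin genes, which encode the chains of hemoglobin, and AHSP, the chaperone that holds free alpha globin until it joins a beta-like chain. They were chosen by name, with earlier values of this data set in view: the high gamma globin signal and the difference of AHSP between the groups. The rule took all probe sets, each a group of short probes that reports 1 signal, whose symbol in the probe-to-gene table was or included HBA1, HBA2, HBB, HBD, HBE1, HBG1, HBG2, HBZ or AHSP. This gave 14 of the 49293 probe sets that are not array controls, and all 9 genes were represented. HBA1 and HBA2 shared 1 probe set and HBG1 and HBG2 shared 5, so neither pair could be split into its genes. HBB had 3 probe sets, HBD 2, and HBE1, HBZ and AHSP 1 each.

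The 6 Affymetrix arrays measured RNA of cells that the labels name NCI-H929, which is a line from human multiple myeloma, a plasma cell cancer. The 3 arrays called PRMT5_down came from cells with a lentivirus designed to reduce PRMT5, and the other 3 from cells with a control lentivirus. The titles call both vectors sponges, while the treatment protocol describes a short hairpin RNA in pLKO.1, puromycin selection and a comparison with normal NCI-H929 cells. Each group carries the replicate numbers 1, 2 and 3, and the labels do not say whether these were separate cultures; a p-value here therefore reflects the spread among arrays alone, and that spread may be technical.

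Hemoglobin is built from alpha-like chains, encoded on chromosome 16, and beta-like chains, encoded on chromosome 11. During development the embryonic chains zeta (HBZ) and epsilon (HBE1) give way to alpha (HBA1 and HBA2) and gamma (HBG1 and HBG2), and after birth beta (HBB) and some delta (HBD) replace gamma. PRMT5, which places symmetric dimethyl marks on arginines of histones and other proteins, has been linked to the silencing of gamma globin in erythroid cells. Globins are not part of the plasma cell program from which myeloma arises.

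In RefSeq's GRCh38.p14 the beta-like genes lie at chr11:5225464-5227071 (HBB), chr11:5232838-5234483 (HBD), chr11:5248269-5249857 (HBG1), chr11:5253188-5254781 (HBG2) and chr11:5268345-5269945 (HBE1). The alpha-like genes lie at chr16:152644-154503 (HBZ), chr16:172876-173710 (HBA2) and chr16:176680-177522 (HBA1), and AHSP lies apart from them at chr16:31527900-31528803. Of the 9 genes, HBD alone had a promoter in the RefSeq table used here, and its sequence is shown for that reason. The stretch, chr11:5234434-5234733 on the minus strand of GRCh38.p14, runs 5′ to 3′ from 250 bases before to 50 after the gene's start. Capitals mark matches, on either strand, to any of 4 searched motifs: CCAAT, the site of general promoter factors; CACCC, the site of KLF-type factors; TGACCA, a site of the gamma globin repressor BCL11A; and GATAA, the site of GATA factors.
HBD promoter: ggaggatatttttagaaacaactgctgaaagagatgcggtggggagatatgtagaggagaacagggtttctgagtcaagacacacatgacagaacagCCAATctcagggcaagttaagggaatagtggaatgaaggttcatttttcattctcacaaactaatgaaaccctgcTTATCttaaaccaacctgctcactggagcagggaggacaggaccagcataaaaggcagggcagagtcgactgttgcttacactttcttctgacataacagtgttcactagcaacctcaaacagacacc
CCAAT began 153 bases before the start, and GATAA was matched on the opposite strand, where the printed letters read TTATC, from 78 bases before it. The other motifs, CACCC and then also TGACCA, had no match in this window. Over 35116 promoters of the same length, the CCAAT motif was held by 34.6%, the GATAA motif by 22.7%, the CACCC motif by 59.9% and the TGACCA motif by 10.7%. These matches are letters in a window and were not compared with binding data.

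The values are log2 signals made by the authors with RMA, so a difference of 1 is a 2-fold change in signal. Array medians lay between 5.29 and 5.31. Background was set, on each array, at the 95th percentile of 368 probe sets of olfactory receptor genes, which are mostly silent outside the nose, and lay between 4.88 and 5.03. PRMT5, the targeted gene, had control signals of 9.93, 10.35 and 10.30 in replicates 1 to 3, and PRMT5_down signals of 8.63, 9.65 and 9.37. The groups did not overlap (two-sided exact permutation test p = 0.1, the smallest that 3 arrays against 3 allow), and PRMT5 missed the threshold over all probe sets (log2 difference -0.98, SE 0.28, limma adjusted p = 1).

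The labelled cell type was set against its markers. Of 18 plasma cell genes, 9 exceeded background on each of the 6 arrays and 8 on none. Over all probe sets, 50.7% exceeded it on each array, so the count of plasma cell genes was near that share. PRDM1, XBP1 and SDC1 were among the former, with mean signals of 5.77, 10.43 and 5.23. IRF4, CD38, TNFRSF17, MZB1 and POU2AF1 were among the latter. All of these are defining genes of plasma cells. Of the plasma cell genes, XBP1 and SSR4 alone also exceeded, on every array, the 99th percentile of the olfactory receptor probe sets (6.71 to 6.92). The 3 genes fixed for the labelled line itself were the translocation genes NSD2 and FGFR3 and the cyclin gene CCND2. They exceeded background on each array, as did 50.7% of all probe sets, with mean signals of 9.05, 8.63 and 10.36. Such a signal does not show the translocation. Of the erythroid markers, 11 were measured and 10 exceeded background on each array. KLF1 and GATA1, erythroid regulators, were among the 10, with mean signals of 10.30 and 10.19. Mean PRMT5_down minus control over the 11 ran from 0.00 for TAL1 to 1.00 for SLC4A1. It was 0.58 for EPB42, above background on 2 arrays, 0.53 for TFRC and 0.14 for each of KLF1 and GATA1. The summed signal of the erythroid markers, on the log2 scale, was 13.17 to 13.47 in controls and 13.49 to 13.70 in PRMT5_down. That of the plasma cell genes was 12.16 to 12.56 and 12.19 to 12.33. Most of the plasma cell sum came from SSR4 and XBP1, with mean signals of 11.57 and 10.43. The part of the erythroid markers in the globin differences below was not tested. In such bulk samples, more cells of a type and more RNA per cell cannot be told apart. Markers of other blood cells lay on both sides of background. On no array were 5 of 6 genes of eosinophils, basophils and mast cells and 4 of 7 of granulocytes and monocytes above it. The same held for 3 of 5 T cell genes, 2 of 4 B cell genes and 2 of 7 megakaryocyte genes. In the same order of lists, 1, 3, 1, 2 and 4 genes exceeded it on all 6 arrays. Among these were LYZ, TUBB1, PAX5, PRG2 and CD3D, with mean signals of 9.02, 8.38, 8.34, 7.81 and 7.50. The summed signal of the eosinophil, basophil and mast cell list was 6.69 to 8.17 in controls and 8.05 to 9.70 in PRMT5_down, with PRG2 above background on all 6 arrays and EPX, CLC, RNASE2, CPA3 and HDC on none. That of the megakaryocyte list was 8.75 to 9.09 and 9.07 to 9.56. ITGA2B, GP9, VWF and TUBB1 were above background on all 6 arrays and PF4 and PPBP on none. TUBB1 and PPBP had a higher mean in PRMT5_down, by 0.68 and 0.17, and ITGA2B, GP9, PF4, GP1BA and VWF a lower one. The part of these lists in the globin differences was not tested either.

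All 14 probe sets were above background on all 6 arrays, as were 50.7% of all probe sets, and they fell into a high and a low group. The embryonic and fetal chains and alpha globin stood at least 5.24 log2 units above background on every array. The probe sets of the adult chains HBB and HBD and of AHSP came as close to it as 0.36, at AHSP in control replicate 3, and none of them exceeded 8.75. Above the stricter 99th percentile of olfactory receptor probe sets, which lay between 6.71 and 6.92, stood on all 6 arrays the 8 probe sets of HBZ, HBA1 and HBA2, HBE1, and HBG1 and HBG2, against 27.4% of all probe sets. No HBB, HBD or AHSP probe set did so on all 6. Several globin probe sets carry suffixes that mark probes shared with related transcripts, including all 3 of HBB, so part of the low HBB signal may be that of other globin transcripts.

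Among the alpha-like chains, HBZ, the embryonic form, varied most over the arrays. Its signal (probe set 11726129_at) was 11.87, 11.24 and 10.27 in the controls numbered 1, 2 and 3 and, in the same order, 12.56, 11.47 and 11.09 under PRMT5_down. Both groups were highest in number 1 and lowest in number 3, and the groups overlapped. Controls averaged 11.13 ± 0.81 and PRMT5_down arrays 11.71 ± 0.76 (SD, n = 3 each), so the step between groups was smaller than the spread within them. Within replicate numbers 1, 2 and 3 HBZ was higher in PRMT5_down by 0.69, 0.23 and 0.82 on the log2 scale, or 1.61-fold, 1.17-fold and 1.77-fold, with a mean log2 difference of 0.58 (SD of the 3 differences 0.31). The mean was 0.15 without control replicate 3, 0.15 without PRMT5_down replicate 1, 0.95 without control replicate 1 and 0.89 without PRMT5_down replicate 3. The SE of this difference was 0.52 in the fit without the replicate number and 0.12 with it.

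The probe set shared by HBA1 and HBA2, which encode the alpha chain of fetal and adult hemoglobin, followed the same order. Its signal (11754267_x_at) was 12.42, 12.35 and 11.63 in controls and 12.78, 12.51 and 12.16 in PRMT5_down, again from number 1 to number 3. The groups overlapped, with means of 12.13 ± 0.44 and 12.48 ± 0.31 (SD, n = 3 each). Within numbers 1, 2 and 3 it was higher in PRMT5_down by 0.36, 0.16 and 0.53, a mean log2 difference of 0.35 (SD of the 3 differences 0.19). The mean was 0.10 without control replicate 3 and 0.20 without PRMT5_down replicate 1.

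Of the beta-like chains, embryonic HBE1 was close to the upper end of the scale on every array. Its signal (11753714_a_at) was 13.53, 13.37 and 13.26 in controls and 13.57, 13.44 and 13.42 in PRMT5_down. It was 0.10 to 0.40 below the highest value of its array, where differences can be compressed. Both groups again ran from number 1 down to number 3 and overlapped. Within numbers it was higher by 0.04, 0.07 and 0.16, a mean of 0.09 (SD of the 3 differences 0.06).

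The 5 probe sets shared by HBG1 and HBG2, the gamma chains of fetal hemoglobin, gave mean differences of 0.08 to 0.16 on the log2 scale. The brightest (11758696_x_at) had signals of 13.47, 13.44 and 13.19 in controls and 13.57, 13.47 and 13.31 in PRMT5_down, between 0.10 and 0.47 below the array's highest value. The next (11758698_x_at) had 12.79, 12.85 and 12.43 in controls and 12.83, 12.81 and 12.72 in PRMT5_down. On each of these probe sets the arrays numbered 3 were the lowest of their group, and the groups overlapped.
The remaining gamma probe sets lay further below the array's highest value, and their values nearly coincided. Probe set 11744478_s_at had 12.24, 12.21 and 11.67 in controls and 12.38, 12.28 and 11.95 in PRMT5_down. Probe set 11715494_s_at had 12.23, 12.23 and 11.71 in controls and 12.40, 12.23 and 11.92 in PRMT5_down, and 11755537_s_at had 12.27, 12.20 and 11.66 in controls and 12.37, 12.28 and 11.93 in PRMT5_down. These also had number 3 lowest in both groups and groups that overlapped. Over all 5 probe sets, single differences within a replicate number ran from -0.04 to 0.29, so the highest was a 1.22-fold step, on 11758698_x_at in number 3. The 5 share their target genes and are not replicates of each other.

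HBD, the minor adult chain, was highest in number 2 in both groups, on both of its probe sets, which no other probe set of the 14 was. Its brighter probe set (11725439_at) had signals of 5.73, 7.27 and 5.60 in controls and 6.24, 7.24 and 5.71 in PRMT5_down. The other (11725438_a_at) had 5.80, 6.94 and 5.59 in controls and 6.52, 7.03 and 5.80 in PRMT5_down. On both, number 2 exceeded the other numbers in each group, by 1.27 and 0.83 over number 1 in the mean of both groups, and the groups overlapped. Within numbers 1, 2 and 3 PRMT5_down minus control was 0.51, -0.03 and 0.11 on the brighter and 0.72, 0.09 and 0.21 on the other, with means of 0.20 and 0.34 (SD of the 3 differences 0.28 and 0.33). The mean of the brighter turned to -0.04, -0.10 and -0.22 without control replicate 1, control replicate 3 and PRMT5_down replicate 2, and was 0.73 without control replicate 2 and 0.54 without PRMT5_down replicate 3.

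HBB, the main adult chain, gave a low signal with no common direction. Its brightest probe set (11715348_x_at) had 6.84, 6.74 and 6.63 in controls and 6.77, 6.66 and 6.58 in PRMT5_down, lower in PRMT5_down within each number by at most 0.08. Probe set 11753712_x_at had 6.26, 6.36 and 5.86 in controls and 6.63, 6.14 and 6.04 in PRMT5_down, and 11715347_s_at had 5.77, 5.52 and 5.71 in controls and 5.60, 5.78 and 5.67 in PRMT5_down. The mean differences of the 3 were -0.07, 0.11 and 0.02, and the single differences ran from -0.22 to 0.37, so they disagreed in sign.

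AHSP had the widest range and the largest difference of the 14 probe sets. Its signal (11718997_at) was 6.74, 5.85 and 5.39 in the controls numbered 1, 2 and 3 and, in the same order, 8.75, 7.04 and 6.92 under PRMT5_down. All 3 PRMT5_down arrays lay above all 3 controls, and within each group number 1 was again the highest and number 3 the lowest. The gap between the lowest PRMT5_down array and the highest control was 0.18, less than the SD within either group (control mean 5.99 ± 0.69, PRMT5_down mean 7.57 ± 1.02, n = 3 each). Within numbers 1, 2 and 3 AHSP was 4.03-fold, 2.28-fold and 2.89-fold higher in PRMT5_down. The mean log2 difference was 1.58 (SD of the 3 differences 0.41), with an SE of 0.58 without and 0.14 with the replicate number in the fit. Among the mean differences of all probe sets it ranked 2, counted from the most positive. Without PRMT5_down replicate 1 the mean difference was 0.99. AHSP was one reason for choosing these genes, so this difference is a description and no test is drawn from it.

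**Figure D1:**
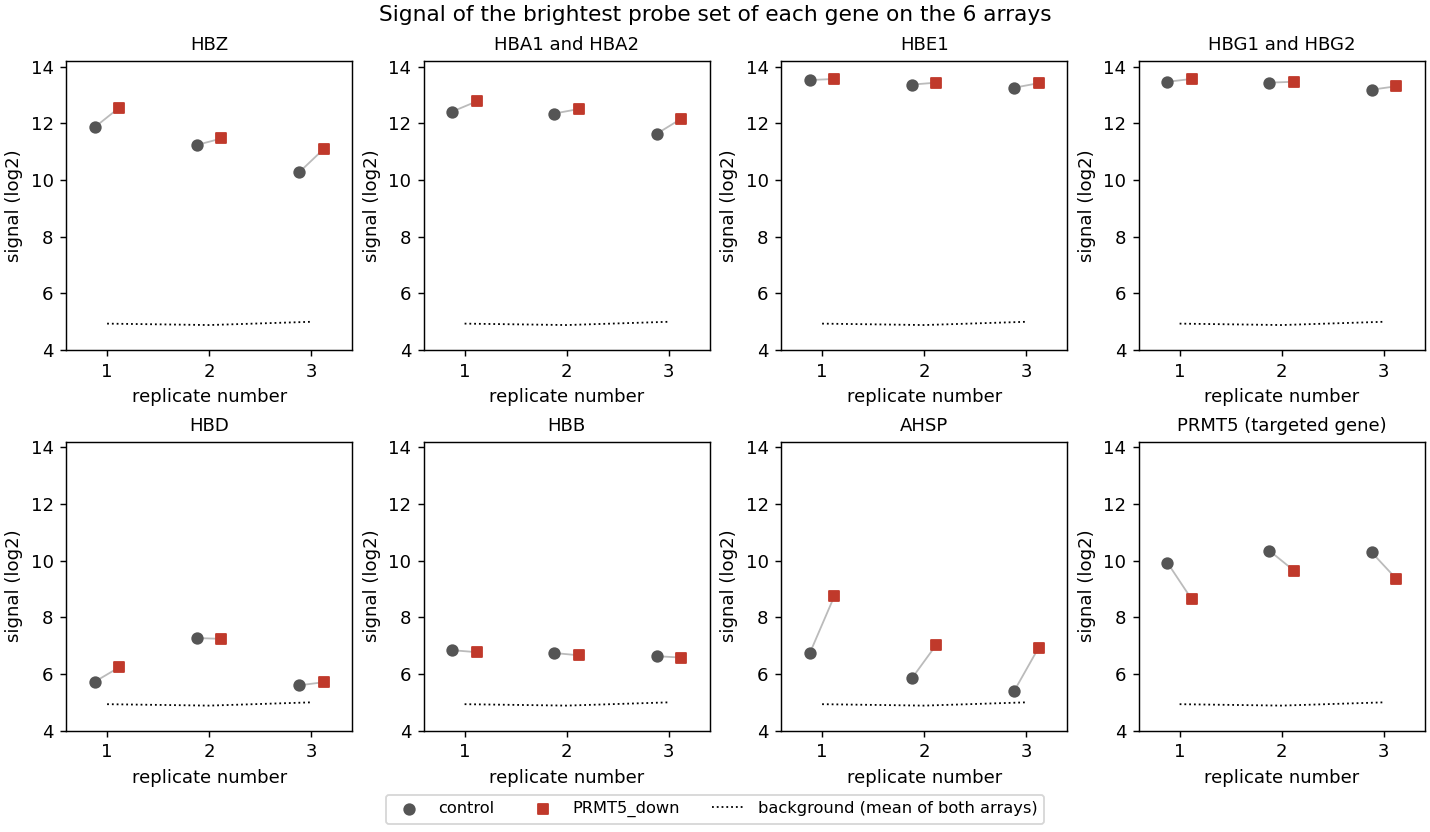
Log2 signal (y axis) of the brightest probe set of each gene and of PRMT5 on the 6 arrays by replicate number (x axis); grey circles are controls, red squares PRMT5_down, a line joins arrays of the same number, and the dotted line is background. AHSP in PRMT5_down (6.92 to 8.75) lies above all controls (5.39 to 6.74), HBD is highest in number 2, and HBE1 and the gamma genes stay near the top of the scale.

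Read together, 13 of the 14 probe sets had a mean difference above 0, against 45.7% of all probe sets, and their median was 0.14 on the log2 scale, against -0.010 over all probe sets. PRMT5_down was higher in all 3 replicate numbers on 8 of the 14 (HBZ, HBA1 and HBA2, HBE1, 3 of HBG1 and HBG2, 1 of HBD, and AHSP), against 12.5% of all probe sets, and lower in all 3 on 1, of HBB, against 14.3%. The groups did not overlap on 1 of the 14, AHSP, where PRMT5_down was higher, against 1.49% of all probe sets; PRMT5_down lay below all controls on 0 of the 14, against 2.43%. AHSP was also the 1 with a mean at least 2-fold higher, against 0.0223%. The genes were chosen with these differences known and several probe sets share a target, so nothing is read from these counts. In limma fitted to all 49293 probe sets, 0 of the 14 passed an adjusted p of 0.05, with a background of 0% passing (466 probe sets, or 0.945%, had an unadjusted p under 0.05). With the replicate number as a block, 0 of the 14 passed as well, with 8.56% of all probe sets at an unadjusted p under 0.05.

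**Figure D2:**
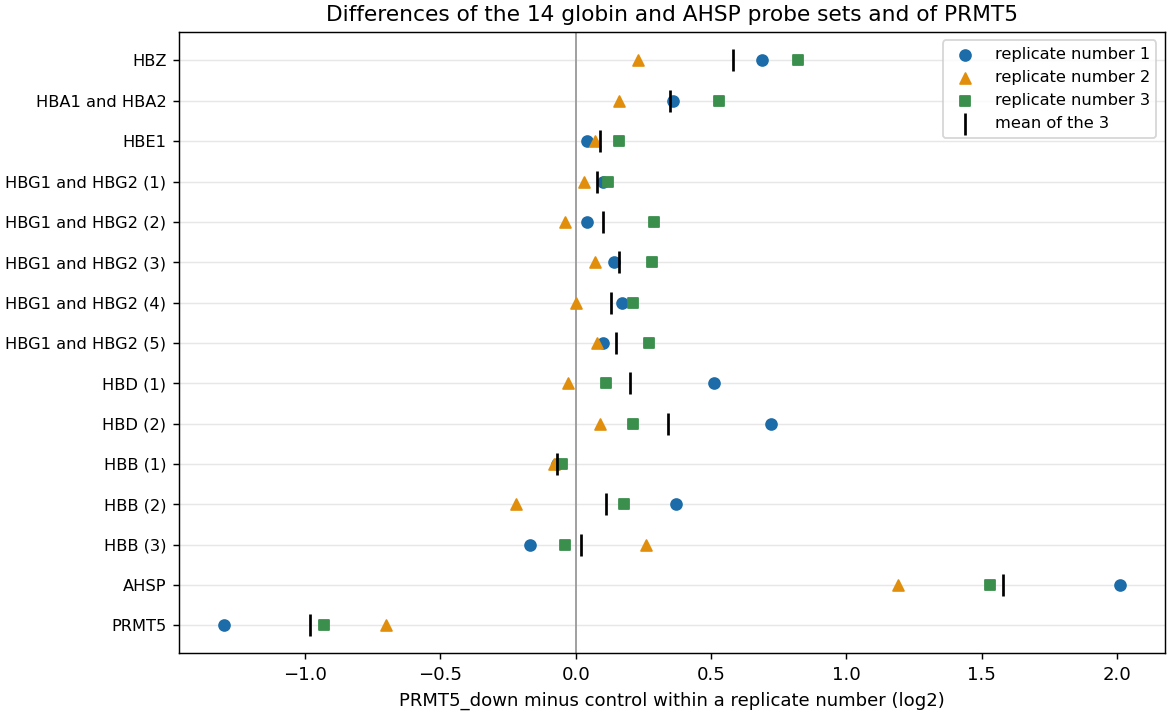
PRMT5_down minus control within each replicate number on the log2 scale (x axis) for the 14 probe sets and PRMT5 (rows; digits in brackets number the probe sets of a gene from bright to dim); symbols are replicate numbers and the bar is their mean. AHSP stands at 1.19 to 2.01, HBZ at 0.23 to 0.82, the gamma probe sets at -0.04 to 0.29 and PRMT5 at -1.30 to -0.70.

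The size of the differences was not the same in each replicate number. In magnitude it was smallest in number 2 on 9 of the 14 probe sets, against 45.1% of all probe sets. Several of these probe sets share a target gene, so nothing is read from the count. PRMT5 itself stood at 40.6%, 61.6% and 52.5% of its control in numbers 1, 2 and 3, so the magnitude of its difference was smallest in number 2 too. The magnitude for AHSP followed the same order of numbers as that for PRMT5, largest in 1 and smallest in 2, while HBZ and the probe set of HBA1 and HBA2 had their largest difference in number 3. With 3 replicate numbers these orders were not tested.

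The level of many of these probe sets also went with the replicate number in both groups. Number 1 was highest and number 3 lowest in controls and in PRMT5_down on 8 of the 14 probe sets, against 8.12% of all probe sets: HBZ, HBA1 and HBA2, HBE1, 3 of HBG1 and HBG2, 1 of HBB, and AHSP. Averaged over both groups, number 1 exceeded number 3 by 1.59 for AHSP, by 1.54 for HBZ and by 0.70 for HBA1 and HBA2. On all 14 probe sets, AHSP included, the span between the highest and lowest number was larger than the mean difference between the groups, as on 89.2% of all probe sets; for AHSP the values were 1.59 and 1.58. A range over the 6 arrays as wide as that of HBZ, 2.29, was reached by 0.233% of all probe sets.

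A sign of RNA quality taken from actin moved with the same arrays, while the one from GAPDH did so in part. The array's actin control probe sets gave a 3′ minus 5′ difference in log2 signal of 1.09, 1.02 and 0.73 in the controls numbered 1, 2 and 3 and, in the same order, of 1.22, 1.02 and 0.84 under PRMT5_down. It was thus highest in number 1 and lowest in number 3 in both groups, as were HBZ, alpha globin and AHSP. Within numbers 1, 2 and 3 it differed between the groups by 0.13, 0.00 and 0.11, with a control mean of 0.95 ± 0.19 and a PRMT5_down mean of 1.03 ± 0.19 (SD, n = 3 each). The corresponding GAPDH difference was 0.14, 0.10 and 0.10 in controls and 0.12, 0.06 and 0.11 in PRMT5_down, with group means of 0.11 ± 0.02 and 0.10 ± 0.03. For GAPDH, number 1 was highest in both groups, while number 3 equalled number 2 in controls and exceeded it in PRMT5_down. The part of RNA quality in the globin and AHSP values was not tested.

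**Figure D3:**
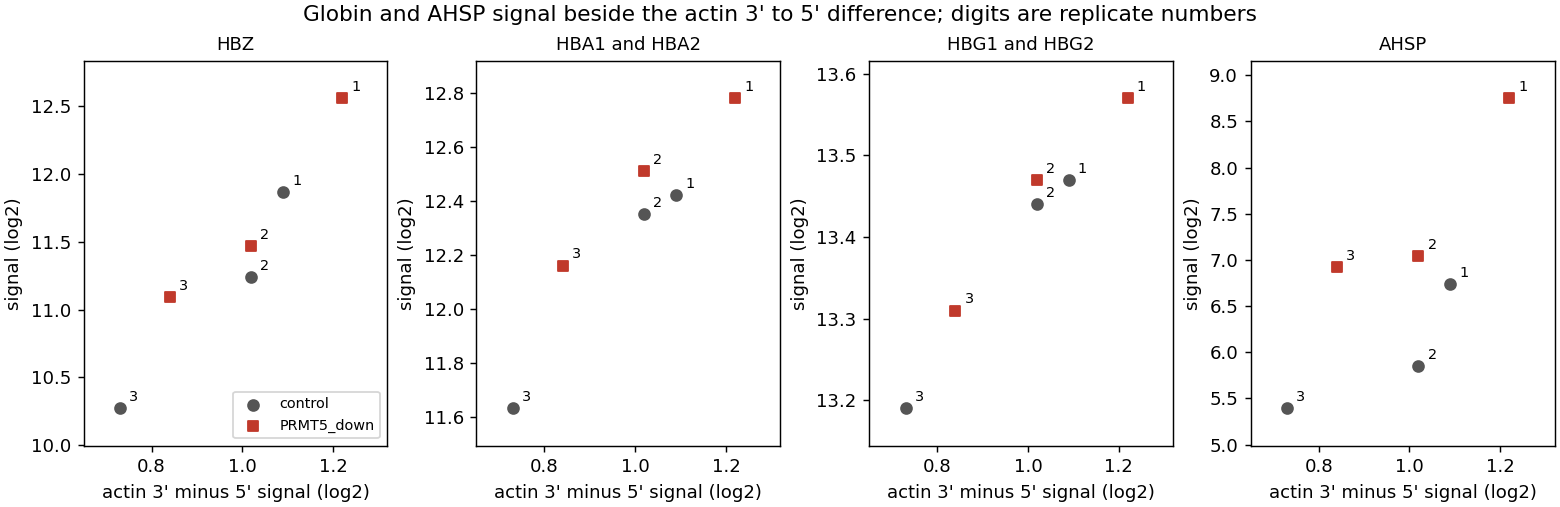
Log2 signal of 4 globin or AHSP probe sets (y axes, each with its own scale) against the actin 3′ minus 5′ difference in log2 signal (x axis) on the 6 arrays; grey circles are controls, red squares PRMT5_down and digits replicate numbers. In each panel control replicate 3, at 0.73, is the lowest point and PRMT5_down replicate 1, at 1.22, the highest.

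Genes whose brightest probe set was most like that of AHSP over the 6 arrays were NTS, a neuropeptide gene, with a Pearson r of 0.970, FAXDC2 with 0.969, TUBB1, the tubulin of platelets and megakaryocytes, with 0.968, RAB8B with 0.955 and KMT2A with 0.952. For the alpha globin probe set they were DENND4C with 0.989, ACYP1 with 0.986, and ASCC3, SLC11A2 and CEP350, each with 0.985. SLC11A2 carries iron across membranes. For the brightest gamma globin probe set they were EIF5B with 0.999, CENPC with 0.998, TNRC6B and FCHO2 with 0.997 and TMEM245 with 0.996. The search covered 1770 genes above background on all 6 arrays with a range of at least 1 log2 unit. The 6 arrays share 2 groups, 3 replicate numbers and the actin pattern above, and no test was made of these values.

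Around hemoglobin production, 72 of 74 genes of 5 lists were measured, and none passed in limma in either direction over all probe sets, as planned or with the block (0 called, with 2 genes at an unadjusted p under 0.05 as planned, or 2.78% against 0.945% of all probe sets, and 14 with the block, or 19.4% against 8.56%). Of 12 heme synthesis genes, 11 had a higher and 1 a lower mean in PRMT5_down, with a median log2 difference of 0.13. Over all probe sets, 45.7% had a higher mean and the median was -0.01, or 0.007 over those above background on all 6 arrays. ALAS2, the erythroid enzyme of the first step, differed by 0.24 (SE 0.11), with 0.13, 0.08 and 0.51 in numbers 1, 2 and 3. SLC25A38, the mitochondrial glycine carrier, differed by -0.31 (SE 0.22), the uroporphyrinogen synthase UROS by 0.16 (SE 0.14) and the porphyrin transport gene TMEM14C by 0.10 (SE 0.09). The late-pathway enzymes CPOX and FECH, named after their values were seen, were higher in all 3 numbers, as were 12.5% of all probe sets. Their mean differences were 0.32 and 0.31 (SE 0.33 and 0.43, or 0.09 for each with the block), and they did not pass with the block (limma adjusted p = 0.50 for each).

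Of 12 erythroid transcription factors, 10 had a higher and 2 a lower mean, with a median of 0.10. Over all probe sets, 45.7% had a higher mean. Among the 10, TAL1 rounded to 0.00, and BACH1, at 0.05, was above background on no array. LMO2, a bridging protein of the GATA1 and TAL1 complex, differed by 0.43 (SE 0.17), with 0.23, 0.51 and 0.55 in numbers 1, 2 and 3. The repressor GFI1B differed by 0.27 (SE 0.21), STAT5A, which signals from the erythropoietin receptor, by -0.37 (SE 0.33, or 0.11 with the block) and the GATA1 cofactor ZFPM1 by 0.16 (SE 0.16).

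The 29 globin switching factors, which include silencers of gamma globin and their corepressors, had 15 higher and 14 lower means with a median of 0.02. MTA1, of the NuRD corepressor, differed by -0.30 (SE 0.11), NFIX by 0.18 (SE 0.08), SOX6 by 0.43 (SE 0.24, or 0.12 with the block) and HIC2 by 0.16 (SE 0.11). The 14 genes of globin protein handling, from heme export to removal of peroxide, had 6 higher, 7 lower and 1 equal means and a median of 0.00. GPX1 differed by -0.21 (SE 0.10), PRDX2 by 0.13 (SE 0.08), the heme exporter FLVCR1 by 0.49 (SE 0.33) and HMOX1, whose signal stayed under background throughout, by -0.11 (SE 0.08).

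Of 5 other globins, 1 had a higher and 4 a lower mean, with a median of -0.10. HBQ1, the theta gene of the alpha cluster, had signals of 10.14, 9.20 and 9.41 in controls and 10.06, 9.53 and 9.41 in PRMT5_down, with number 1 highest in both groups and a mean log2 difference of 0.08 (SE 0.29). HBM, the mu gene of that cluster, was above background on no array and differed by -0.07 (SE 0.09). CYGB, MB and NGB, globins of other tissues, differed by -0.15 (SE 0.08), -0.10 (SE 0.13) and -0.14 (SE 0.09). NGB was also above background on no array, and MB was at most 0.52 above it.

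**Figure D4:**
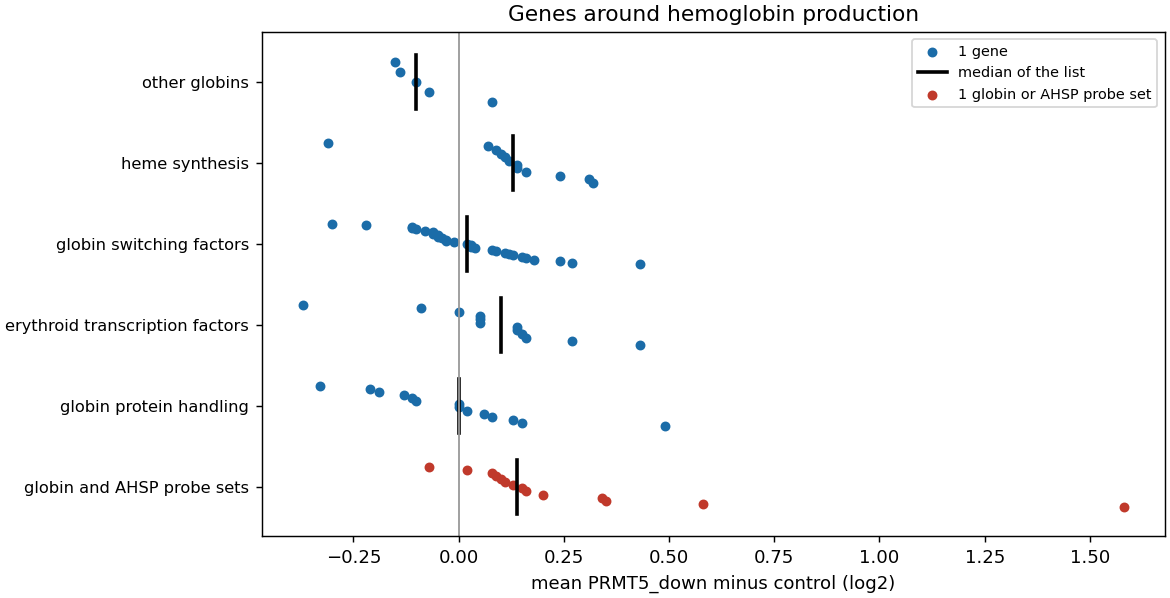
Mean PRMT5_down minus control on the log2 scale (x axis) for each gene of 5 lists (blue) and for the 14 globin and AHSP probe sets (red); black bars are medians. The medians lie between -0.10 and 0.14, and AHSP, at 1.58, is the point farthest to the right.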

How the data were processed

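The authors deposited log2 signals, 1 for each probe set and array. The submitters' processing notes name RMA as their method; its version and the probe set definition are not stated there. RMA equalises the distributions of the arrays, which would hide a shift common to most genes. Differences near the upper end of the signal scale can be compressed, which was not measured here. No value was changed and no dim probe set was left out. The table has 49372 probe sets: 79 array controls, 45064 with 1 gene symbol, 1756 with several and 2473 unnamed here. The HBD entries list the HBD symbol under a pair of gene identifiers.

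The genes and lists were chosen with earlier results of these data known, so the genes' own values are described without a test. The limma package (version 3.58.1, R 4.3.3; functions lmFit and eBayes) fitted PRMT5_down against control over 49293 probe sets, with p-values adjusted by Benjamini-Hochberg and called under 0.05. Groups came from the labels, and the fit was checked on simulated data. There the planned fit called 0% of added log2 changes of 0.5, 14% of those of 1.0 and 84% of those of 2.0. With the block these were 0%, 54% and 84%. A count of 0 called therefore does not show that differences of the size of most globin values are absent. For a list gene the single-symbol probe set with the highest mean was used, and the 4 of each list with the smallest p were named, with HBQ1, named after its value was seen, as the remaining globin. The 5 genes most like each of 3 probe sets were ranked by Pearson r.

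Same-numbered arrays deviated together from their group means (r = 0.81, 0.71 and 0.78, with 0.1 as the minimum). The numbers were therefore taken as pairs for the differences within a number and for the fit with the block; no label states this pairing. The planned fit, its SEs, the choice of named genes and the permutation test of PRMT5 do not use it. Alternatives were the block, variance model, normalization, filters, array weights, left-out arrays and other background levels. Only 3 arrays per group limit the precision.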

Additional observations from a re-analysis of the deposited data

How the results depend on the processing

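With the replicate block, trend and robust together, limma called 6 probe sets in place of 0, among them 1 of the 14, AHSP, and PRMT5 (log2 difference -0.98, adjusted p = 0.036); the cause was not tested. AHSP was chosen with this contrast known, so nothing is read from its call. Under all other settings run, the replicate block alone included, limma called 0 probe sets, 0 of the 14 and 0 list genes. PRMT5 lay between -1.19 and -0.68 with 1 array left out. Against the 99th percentile of olfactory receptor probe sets, 8 of the 14 stood clear on each array (14 at the 95th), fewer because that level is higher.

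For the globin genes and AHSP, no difference moved by as much as 1 SD within the groups. Leaving out 1 of 3 arrays can hardly move a group mean that far, so no stability is read from this. With 1 array left out the difference ranged from 0.99 to 1.95 for AHSP (0.99 without PRMT5_down replicate 1), 0.15 to 0.95 for HBZ, 0.10 to 0.51 for HBA1 and HBA2, 0.03 to 0.16 for HBE1, 0.00 to 0.15 for the brightest gamma probe set, -0.22 to 0.73 for HBD and -0.12 to -0.01 for HBB. The sign turned for HBD without control replicate 1 or 3 or PRMT5_down replicate 2, for HBB with the mean of its probe sets (0.02) and for the brightest gamma probe set, at 0.00 to 2 decimals, without control replicate 3.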
